A study of Saccharomyces cerevisiae with 8 samples.

Results

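The 9 genes described here make or handle vitamin B6 and thiamine in the yeast Saccharomyces cerevisiae: SNZ1, SNO1, SNZ3, SNO3 and PDX3 of vitamin B6 synthesis, and THI4, THI20, THI2 and THI3 of thiamine synthesis and its control. They were taken as a list of gene symbols, and each of the 9 had 1 probe set among the 5449 genes measured. Total RNA had been hybridised to 8 Affymetrix yeast arrays, 2 for each of evolved strain 1, evolved strain 2 and evolved strain 3, and 2 labelled parental. The labels name BY4742, a laboratory strain, as the parent, and describe the evolved strains as individual isolates kept for approximately 450 generations, by daily transfer, in complete medium with 2% glucose; this medium is the only one the labels describe. The arrays of a group are given as biological replicates, but whether they came from separate cultures is not stated; p-values therefore reflect the spread between the arrays at hand, which may be technical.

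Pyridoxal phosphate, the active form of vitamin B6, is the cofactor of transaminases and many other enzymes of amino acid metabolism. In yeast it is made by a synthase whose SNZ subunit builds the ring and whose SNO subunit is a glutaminase that delivers the nitrogen; each SNZ gene lies beside a SNO gene and is read in the opposite direction from it. Thiamine diphosphate is the cofactor of pyruvate decarboxylase, transketolase and the pyruvate and oxoglutarate dehydrogenases. It is joined from a thiazole part, made by Thi4, and a pyrimidine part, made by the Thi5 family from pyridoxal phosphate and histidine, so that the thiamine pathway consumes vitamin B6. SNZ1 and SNO1 are known as genes switched on when growth slows or amino acids run short, while SNZ2, SNO2, SNZ3 and SNO3 lie beside genes of the THI5 family and are known to be repressed by thiamine.

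Levels are log2 of the deposited intensity, a scale on which 1 unit is a 2-fold change; levels of different genes are not comparable, because probe sets differ in brightness. Background was the 95th percentile of probe sets for another yeast species on the same array, 4.274 to 4.403 on this scale, and all 9 genes were above it on all 8 arrays. Across genes, r was 0.9993 to 0.9994 within an evolved strain, 0.9972 between the arrays labelled parental, and 0.912 to 0.924 for evolved against parental arrays; genes are not independent replicates. The strain labels were not borne out in full. BY4742 is an alpha strain that lacks LYS2 and carries MET17. However, LYS2 stood at 11.31 to 11.59 on the evolved arrays and 9.04 and 9.09 on those labelled parental. MET17 was above background on 2 of 8 arrays. URA3, which BY4742 also lacks, was above background on 0 of 8 arrays. The a-factor gene MFA2 stood at 6.79 to 7.14 on the evolved arrays, against 12.53 and 12.61 on those labelled parental. MFA1 stood at 10.25 to 10.76, against 12.36 and 12.35, and the a-cell gene STE2 at 6.48 to 6.97, against 9.18 and 9.16. The alpha-factor genes MF(ALPHA)1 and MF(ALPHA)2 stood at 5.23 to 5.77, against 4.35 and 3.81, and at 5.14 to 5.83, against 4.52 and 5.24. The alpha-cell gene STE3 stood at 7.39 to 7.77, against 7.14 and 7.08. The excess of 3' over 5' signal was smaller in the evolved arrays for 5 of the 6 control transcripts above background on all arrays (median -0.38, evolved minus parental, log2). The controls for SRB4 and URA3, not above background everywhere, were left out. They differed by 0.74 and -0.48. The part of strain identity and of RNA quality in the results that follow was not tested, and all comparisons with the parent share its 2 arrays.

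Of the 9 genes, 8 differed between the mean of the evolved strains and the arrays labelled parental, 4 higher and 4 lower, by limma at an adjusted p under 0.05. Since 86.7% of all genes did so (43.3% higher and 43.4% lower), this count sets the genes apart in no way. What varied was size: SNZ3 and SNO3 were at least 2-fold lower, as were 9.95% of all genes, and none of the 9 was at least 2-fold higher, against 10.9% of all genes. The median log2 difference of the 9 genes was -0.02 and that of all genes -0.0056. In size, 2.61% of all genes changed more than SNO3, 3.4% more than SNZ3 and 23.8% more than THI4, while 97.9% changed more than THI3. On their own, strains 1, 2 and 3 had 8, 8 and 7 of the 9 genes called, where 84.5%, 85.1% and 84.1% of all genes were.

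**Figure D1:**
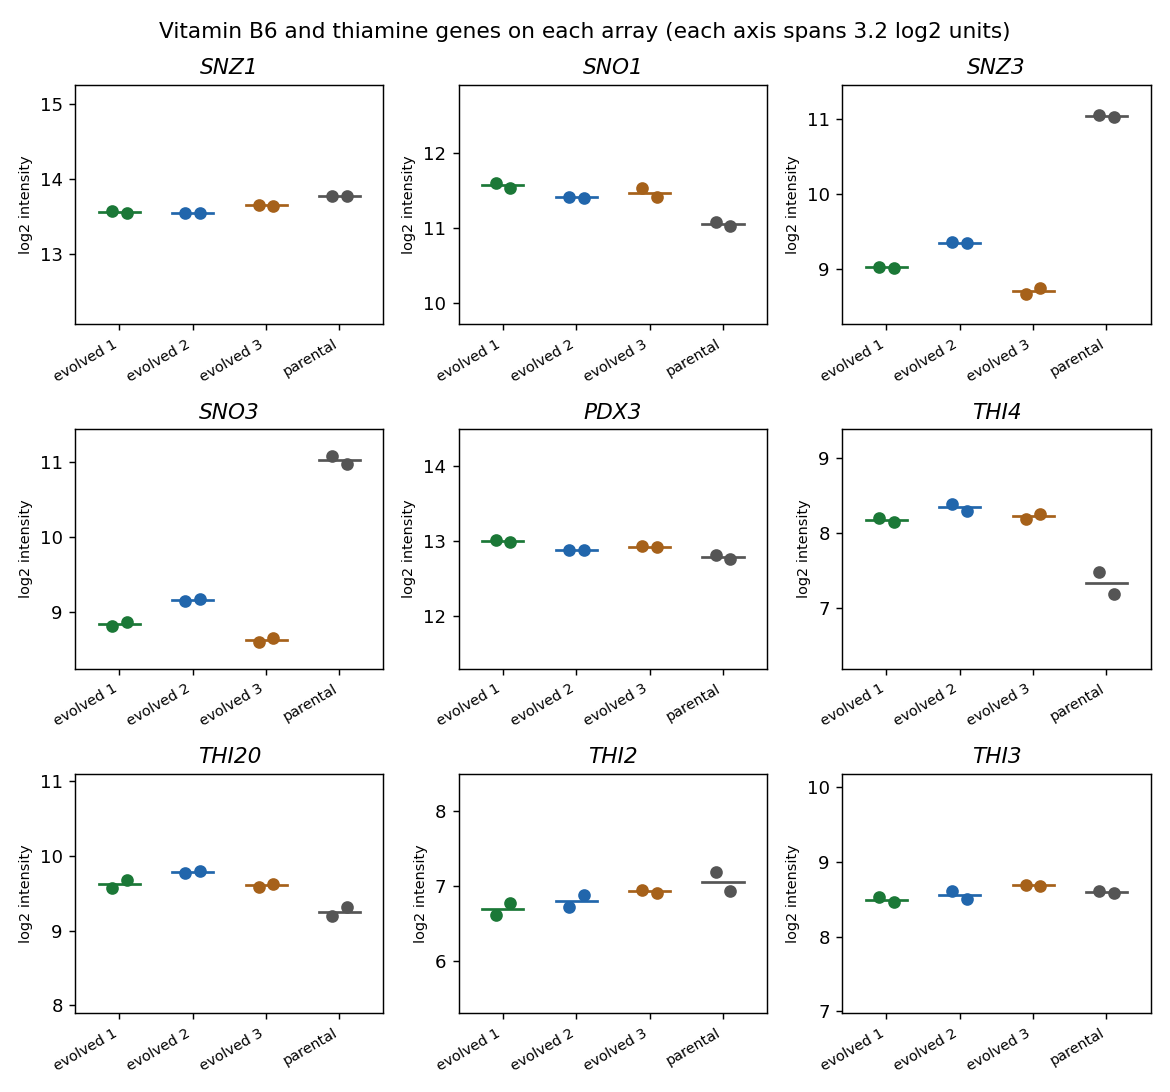
Log2 intensity (vertical axis) of each gene on each of the 8 arrays, grouped by strain along the horizontal axis; points are arrays, bars are group means, and every panel spans the same range. The evolved arrays of SNZ3 and SNO3 lie between 8.60 and 9.36, below the arrays labelled parental at 10.97 to 11.08, while SNZ1 and PDX3 differ by at most 0.23 between group means.

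SNZ3, a synthase subunit gene, was about 4-fold lower in the evolved strains. In strain 1 it measured 9.03 and 9.01, in strain 2 9.36 and 9.34, and in strain 3 8.66 and 8.75, against 11.06 and 11.04 on the arrays labelled parental. All 6 evolved arrays lay below both parental arrays, and the 3 evolved strains did not overlap with one another. Such separation was common: all 6 evolved arrays lay on 1 side of both parental arrays for 77.1% of all genes. For a single strain against parental the share was 90.8% to 91.2%, and between 2 evolved strains 76.1% to 84.6%. Lack of overlap, here and for the genes below, therefore sets none of them apart. The log2 difference from parental was -2.03 ± 0.04 (SE, 2 arrays against 2) in strain 1, -1.70 ± 0.04 in strain 2 and -2.34 ± 0.04 in strain 3, or 4.07-, 3.24- and 5.07-fold lower. Each SE, here and below, uses a spread shared by all groups, not that of the compared arrays alone. Adjusted p-values with limma were 3.47e-08, 4.94e-08 and 2.55e-08.

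SNO3, the glutaminase gene beside it, was lower in the same order of strains. Its levels were 8.80 and 8.87 in strain 1, 9.14 and 9.16 in strain 2, and 8.60 and 8.65 in strain 3, against 11.08 and 10.97 on the arrays labelled parental. Again the evolved arrays lay below both parental arrays. SNO3 differed by -2.19 ± 0.05 (log2, SE) in strain 1, -1.88 ± 0.05 in strain 2 and -2.40 ± 0.05 in strain 3, or 4.57-, 3.67- and 5.29-fold lower, with adjusted p-values of 4.87e-08, 7.05e-08 and 3.56e-08 (limma). For both genes the call held in all 64 combinations of comparison with parental and alternative processing. Several of these could not change the values, so the count is no measure of robustness. Both genes were above background on every array and had a single probe set. Raising values to background, filtering on it and taking the median of probe sets therefore left them as they were. Leaving out an array outside a comparison also left its difference unchanged.

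The probe sets of SNZ3 and SNO3 carry the suffix that Affymetrix gives to sets whose probes match several transcripts. No probe set was named for SNZ2 or SNO2, the near-identical copies, in the annotation used here. The values therefore cannot be assigned to SNZ3 and SNO3 alone, and how a change is divided between the copies cannot be read from them.

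SNZ1 moved little. In strain 1 it measured 13.58 and 13.55, in strain 2 13.54 and 13.55, and in strain 3 13.66 and 13.65, against 13.78 on each array labelled parental. The evolved arrays were all lower, with differences of -0.22 ± 0.03 (log2, SE) in strain 1, -0.23 ± 0.03 in strain 2 and -0.12 ± 0.03 in strain 3, at most 1.18-fold. Adjusted p-values with limma were 0.000287, 0.000188 and 0.00506. The brightest probe set on any array reached 14.83, so SNZ1 lay near the upper end of the scale. Whether its differences were understated there was not tested.

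SNO1, the partner of SNZ1, went the other way. It read 11.60 and 11.54 in strain 1, 11.42 and 11.41 in strain 2, and 11.53 and 11.42 in strain 3, against 11.08 and 11.03 on the arrays labelled parental. Every evolved array exceeded both parental ones. SNO1 rose by 0.51 ± 0.05 (log2, SE) in strain 1, 0.36 ± 0.05 in strain 2 and 0.42 ± 0.05 in strain 3, or 1.28- to 1.43-fold, with adjusted p-values of 4.51e-05, 0.000313 and 0.000135 (limma).

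Between the pairs, the within-array difference SNZ3 minus SNZ1 changed by -1.83 (log2, mean of evolved minus parental arrays), and SNO3 minus SNO1 by -2.59. The drop was present in each strain, from -1.46 in strain 2 to -2.22 in strain 3 for SNZ3 minus SNZ1, and from -2.23 to -2.82 in the same strains for SNO3 minus SNO1. In a two-sided exact permutation test over the 8 arrays, p was 0.0357 for each, the smallest that 28 splits allow, and 0.0536 after Benjamini-Hochberg adjustment over the 3 gene pairs compared. With the 4 strains as units the smallest p would be 0.25. The values above already separated the evolved from the parental arrays, and the 2 arrays of a strain were correlated. The test therefore adds no separate support for the drop. The third pair, SNZ3 minus SNO3, changed by 0.14 (exact permutation p = 0.0714, adjusted p = 0.0714).

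**Figure D2:**
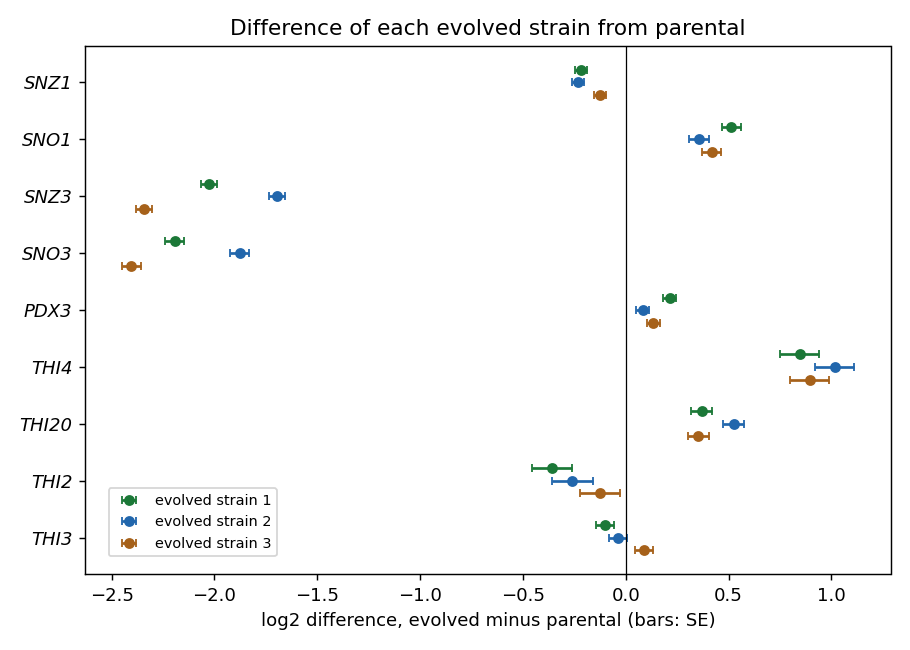
Log2 difference of each evolved strain from the arrays labelled parental (horizontal axis) for the 9 genes (vertical axis). Points are differences of group means and bars the SE from limma, 2 arrays against 2, with a spread shared by all groups. SNZ3 and SNO3 sit between -1.70 and -2.40, THI4 between 0.85 and 1.02, and the rest between -0.36 and 0.53.

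PDX3 encodes pyridoxamine phosphate oxidase, which turns other forms of the vitamin into pyridoxal phosphate. Its levels were 13.02 and 12.99 in strain 1, 12.88 and 12.87 in strain 2, and 12.93 and 12.92 in strain 3, against 12.82 and 12.76 on the arrays labelled parental. The evolved arrays were all higher, by 0.21 ± 0.03 (log2, SE; adjusted p = 0.000599 with limma) in strain 1, 0.08 ± 0.03 (adjusted p = 0.0431) in strain 2 and 0.13 ± 0.03 (adjusted p = 0.00646) in strain 3. The call in strain 2 was lost under 11 of 16 alternatives, with adjusted p from 0.0511 to 0.983, among them leaving out parental array 2 (0.06, adjusted p = 0.136) or any 1 evolved array (adjusted p = 0.0634 to 0.14). In strain 3 it was lost when the arrays were scaled differently: adjusted p was 0.103 after quantile normalization over the tested probe sets and 0.118 after centring on the median. In the mean of the evolved strains PDX3 was 0.14 ± 0.03 (adjusted p = 0.00155), and 0.07 (adjusted p = 0.0562) after quantile normalization.

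Of the thiamine synthesis genes, THI4, which encodes the thiazole synthase, showed the largest rise. Its readings were 8.20 and 8.15 (strain 1), 8.39 and 8.29 (strain 2) and 8.19 and 8.25 (strain 3), against 7.47 and 7.18 on the arrays labelled parental. The evolved arrays were all above both parental arrays, whose own gap was wider than that within any evolved strain. THI4 rose by 0.85 ± 0.09 (log2, SE), 1.02 ± 0.09 and 0.89 ± 0.09 in strains 1, 2 and 3, or 1.80-, 2.02- and 1.86-fold. Adjusted p-values with limma were 0.00012, 4.21e-05 and 8.79e-05.

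THI20 encodes a kinase that phosphorylates the pyrimidine part. Its readings were 9.57 and 9.67 (strain 1), 9.77 and 9.79 (strain 2) and 9.59 and 9.63 (strain 3), against 9.20 and 9.31 on the arrays labelled parental, with no overlap. It rose by 0.37 ± 0.05 (log2, SE; adjusted p = 0.000403 with limma) in strain 1, 0.53 ± 0.05 (adjusted p = 5.61e-05) in strain 2 and 0.35 ± 0.05 (adjusted p = 0.000513) in strain 3.

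The 2 regulators changed less. THI2, a transcriptional activator of the thiamine genes, read 6.62 and 6.78 in strain 1, 6.72 and 6.87 in strain 2, and 6.95 and 6.91 in strain 3, against 7.18 and 6.93 on the arrays labelled parental. Strains 1 and 2 lay below both parental arrays, and strain 3 overlapped with them. The log2 difference was -0.36 ± 0.10 (SE; adjusted p = 0.0114 with limma) in strain 1, -0.26 ± 0.10 (adjusted p = 0.0411) in strain 2 and -0.13 ± 0.10 (adjusted p = 0.264) in strain 3, where the 95% interval ran from -0.36 to 0.11. The call in strain 1 was lost without its replicate 1 (-0.28, adjusted p = 0.0727). In strain 2 it was lost without parental array 1 (-0.13, adjusted p = 0.187), without its own replicate 1 (-0.18, adjusted p = 0.201) and without either array of strain 3 (adjusted p = 0.0646). It was also lost with the replicate number as a block (adjusted p = 0.0626) and in a fit of the strain 2 and parental arrays alone (adjusted p = 0.0834). Without parental array 1 the strain 3 difference was 6.18e-05, and without parental array 2 it was -0.25 (adjusted p = 0.0322). The mean of the evolved strains gave -0.25 ± 0.08 (adjusted p = 0.0221), with arrays overlapping, and lost its call without parental array 1 (-0.12, adjusted p = 0.172).

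THI3 encodes a protein related to pyruvate decarboxylase that senses thiamine diphosphate and acts with Thi2. THI3 read 8.52 and 8.46 (strain 1), 8.61 and 8.51 (strain 2) and 8.69 and 8.68 (strain 3), against 8.61 and 8.58 on the arrays labelled parental. Strain 1 was below, strain 2 overlapping and strain 3 above the parental arrays. None of the 3 differences was called: -0.10 ± 0.04 (log2, SE; adjusted p = 0.0601 with limma) in strain 1, -0.04 ± 0.04 (adjusted p = 0.434) in strain 2 and 0.09 ± 0.04 (adjusted p = 0.0916) in strain 3. Their 95% intervals ran from -0.21 to 0.00072, from -0.14 to 0.07 and from -0.01 to 0.19. The difference in strain 1 passed the threshold under 5 of 16 alternatives, among them quantile normalization (-0.15, adjusted p = 0.0145) and leaving out either array of strain 2 (adjusted p = 0.0471). In strain 2 THI3 was called after quantile normalization (-0.15, adjusted p = 0.0133) and after centring on the median (-0.12, adjusted p = 0.039). The mean of the evolved strains gave -0.02 ± 0.04 (adjusted p = 0.66), and -0.11 (adjusted p = 0.0232) after quantile normalization, so whether THI3 was lower depends on the scaling of the arrays.

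A fit with strain as a random block, which allows arrays of 1 strain to be correlated (estimated correlation 0.854) but still counts 8 arrays, left 5 of the 9 genes called in the mean of the evolved strains: SNZ3 (adjusted p = 3.14e-05), SNO3 (1.38e-05), THI4 (0.00841), SNO1 (0.0213) and THI20 (0.0338). SNZ1 (adjusted p = 0.113), PDX3 (0.262) and THI2 (0.427) were no longer called. Of all genes, 56.8% were called in that fit.

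Among the evolved strains, SNZ3 and SNO3 were both highest in strain 2 and lowest in strain 3. Each step in that order was called. Strain 2 exceeded strain 1 by 0.33 ± 0.04 (log2, SE; adjusted p = 0.000801 with limma) for SNZ3 and 0.32 ± 0.05 (adjusted p = 0.00191) for SNO3, while 52.7% of all genes were called between these strains. Strain 3 minus strain 1 was -0.32 ± 0.04 (adjusted p = 0.000854) for SNZ3 and -0.21 ± 0.05 (adjusted p = 0.00797) for SNO3, in a comparison with 57.5% of genes called. The SNO3 step between strains 3 and 1 lost its call without strain 1 replicate 2 (-0.18, adjusted p = 0.0527) and without strain 3 replicate 1 (-0.19, adjusted p = 0.0528). Between strains 3 and 2 the differences were -0.65 ± 0.04 (1.56-fold, adjusted p = 0.000209 with limma) and -0.53 ± 0.05 (1.44-fold, adjusted p = 0.00072). Both were called in all 16 alternatives, though several of these could not change the values. In this comparison 32% of genes were called, and 0.863% differed by more than SNZ3 and 2.02% by more than SNO3. These 2 genes were the only ones of the 9 called in all 3 pairs of evolved strains, as were 11.5% of all genes.

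The other 7 genes differed by at most 0.23 between evolved strains. SNZ1 was highest on the arrays labelled parental, then in strain 3, then in strain 1 (adjusted p = 0.0287 between these 2), with strains 1 and 2 not separated (adjusted p = 0.646). SNO1 ran from strain 1 through strains 3 and 2 down to the arrays labelled parental; neighbouring evolved strains were not separated (adjusted p = 0.126 and 0.357), but strains 2 and 1 were (-0.16, adjusted p = 0.0295). THI4 was not called between any evolved strains, where adjusted p was 0.169 to 0.678. THI20 was higher in strain 2 than in strain 1 (0.16, adjusted p = 0.0387 with limma) and strain 3 (adjusted p = 0.0425). Both THI20 calls were lost after centring on the median (adjusted p = 0.209 and 0.06), and the first also after quantile normalization (adjusted p = 0.129). Centring also removed the SNZ1 call between strains 3 and 1 (0.036, adjusted p = 0.352). These calls therefore depend on the scaling of the arrays. PDX3 was lower in strain 2 than in strain 1 (-0.13, adjusted p = 0.0139), and THI3 was higher in strain 3 than in strain 1 (0.19, adjusted p = 0.00906). THI2 had no call between evolved strains with all arrays in the fit. Several of these small differences lost their call without a single array: leaving out 1 array in turn gave 2 to 6 called genes between strains 2 and 1 (5 with all arrays), 1 to 6 between strains 3 and 1 (4 with all arrays) and 2 to 5 between strains 3 and 2 (4 with all arrays). Other differences gained a call: without either parental array, and in a fit of the 2 strains alone, THI2 was called between strains 3 and 1 (0.23, adjusted p = 0.0189 to 0.0258) and THI4 between strains 2 and 1 (0.17, adjusted p = 0.0154 to 0.0212). PDX3 was called between strains 3 and 1 under 4 alternatives (adjusted p = 0.00926 to 0.0324), among them leaving out either parental array.

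The 2 gene pairs lie in different surroundings, and the genes shown next to them were chosen after the values were seen. In the order of the R64 annotation, SNO3 and SNZ3 are followed by THI5, for which no probe set was named here, and by AAD6, of the aryl-alcohol dehydrogenase family. AAD6 averaged 6.51 in the evolved arrays and 8.87 in those labelled parental, a difference of -2.36 ± 0.13 (log2, SE; adjusted p = 1.93e-06 with limma). On the other side DDI3, a cyanamide hydratase gene whose probe set also has the suffix for several transcripts, averaged 7.62 in the evolved arrays and 5.63 in those labelled parental, a difference of 1.99 ± 0.18 (adjusted p = 3.31e-05). COS4, 1 gene further, differed by 0.02 ± 0.04 (adjusted p = 0.543). Its probe set has the same suffix, so the value may not belong to COS4 alone. Around SNO1 and SNZ1 the adjoining genes were CTF13, which rose by 0.32 ± 0.06 (adjusted p = 0.00213), and MTG1, which differed by -0.51 ± 0.03 (adjusted p = 3.21e-06). Near SNO2 and SNZ2, which may share the SNO3 and SNZ3 signal, the nearest gene with a named probe set was AAD14, at -0.86 ± 0.04 (adjusted p = 5.74e-07). Further on that side, RPD3 differed by -0.00093 ± 0.03 (adjusted p = 0.979) and PEX6 by 0.55 ± 0.04 (adjusted p = 6.42e-06). Whether the change is local to either place was not tested.

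**Figure D3:**
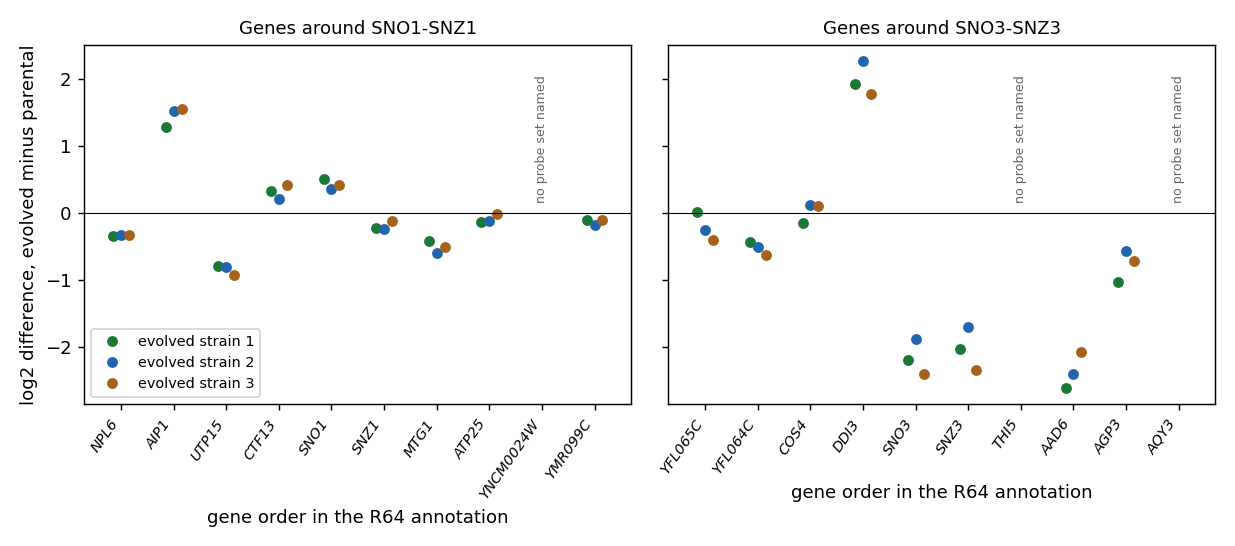
Log2 difference of each evolved strain from the arrays labelled parental (vertical axis) for SNO1-SNZ1 and SNO3-SNZ3 and 4 genes on each side, in the order of the R64 annotation (horizontal axis); points are differences of group means. SNO3, SNZ3 and AAD6 lie at or below -1.70 in all 3 strains, and DDI3 between 1.78 and 2.27.

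The THI5 family makes the pyrimidine part of thiamine. THI13 was the only gene of this family named for a probe set, one whose suffix marks several transcripts, so its values may belong to THI5, THI11 and THI12 as well; it is given here after its values were seen. THI13 read 8.90 and 8.88 (strain 1), 8.68 and 8.65 (strain 2) and 8.75 and 8.72 (strain 3), against 9.06 and 9.01 on the arrays labelled parental. THI13 was lower in each strain, with a mean log2 difference of -0.27 ± 0.03 (SE; adjusted p = 5.72e-05 with limma), a much smaller one than those of SNZ3 and SNO3.

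Of the 13 other measured genes for thiamine synthesis, phosphorylation and uptake, 6 were higher, 4 lower and 3 not called in the mean of the evolved strains, with a median of 0.07. Over all genes the shares were 43.3% higher and 43.4% lower and the median -0.0056, so these counts are near the background. Uptake genes were among the higher ones. THI7, the main thiamine transporter, ranged from 8.73 to 9.27 on the evolved arrays, against 7.94 and 7.86 on those labelled parental, and rose by 1.10 ± 0.04 (log2, SE; adjusted p = 2.63e-07). Its relative THI72 ranged from 7.23 to 7.79, against 6.31 and 6.36, and rose by 1.15 ± 0.05 (adjusted p = 7.05e-07). Their paralogue NRT1, which carries nicotinamide riboside and is named after its values were seen, was lower, at -0.33 ± 0.05 (adjusted p = 0.000778). PET18, a gene of the TENA/THI family, was lower, at -1.27 ± 0.03 (adjusted p = 8.22e-08 with limma), and most so in strain 2 at -1.89. THI80, another gene of this list, is named after its values were seen. It was lower on every evolved array, at 6.48 to 6.83, against 7.80 and 7.43 on those labelled parental.

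Of the 4 other measured genes of vitamin B6 synthesis, salvage and uptake, none was higher, 2 were lower and 2 were not called, where 43.3% of all genes were higher and 43.4% lower. YPR127W, a putative pyridoxine dehydrogenase gene, ranged from 10.98 to 11.27 on the evolved arrays, against 11.87 and 11.86 on those labelled parental (-0.73 ± 0.02, log2, SE; adjusted p = 2.05e-07 with limma). BUD16, a putative pyridoxal kinase gene, ranged from 9.12 to 9.47, against 9.92 and 9.89 (-0.56 ± 0.03; adjusted p = 3.03e-06). PDC2, a regulator needed for thiamine gene expression, was not called in the mean (0.09 ± 0.06, adjusted p = 0.184), but was lower in strain 1 (-0.19, adjusted p = 0.0364) and higher in strain 3 (0.35, adjusted p = 0.00217).

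Enzymes that use the 2 cofactors went both ways. Thiamine diphosphate enzymes counted 7 higher and 3 lower of 10 measured, and their median was 0.62, while 43.3% of all genes were higher and 43.4% lower. TKL1, the main transketolase, rose by 2.07 ± 0.04 (log2, SE; adjusted p = 1.89e-08), the pyruvate decarboxylase gene PDC1 by 2.00 ± 0.03 (adjusted p = 7.53e-09) and its thiamine-repressed paralogue PDC5 by 1.05 ± 0.06 (adjusted p = 3.78e-06). ARO10, a decarboxylase of amino acid breakdown, rose by 1.79, and PDC6, a minor pyruvate decarboxylase, was lower, at -1.06. Of 39 enzymes that use pyridoxal phosphate, 27 were higher, 10 lower and 2 not called, with a median of 0.36. By at least 2-fold, 10 of the 39 rose and 2 fell, where 10.9% of all genes rose and 9.95% fell that far.

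Among these 12 were ARO9 and ARO8, aromatic aminotransferases, at 2.52 and 1.71, TRP5 of tryptophan synthesis at 1.97, IRC7 of cysteine breakdown at 1.92, the glycogen phosphorylase GPH1 at 1.92 and BIO3 of biotin synthesis at 1.88. HIS5, GLY1, ALT1 and SRY1 rose by 1.49, 1.46, 1.21 and 1.02. CHA1, a catabolic serine and threonine deaminase, was lower, at -2.18 ± 0.04 and ALT2, a paralogue of ALT1, at -1.48 ± 0.03. Adjusted p-values of these 12 were at most 2.31e-07 (limma).

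**Figure D4:**
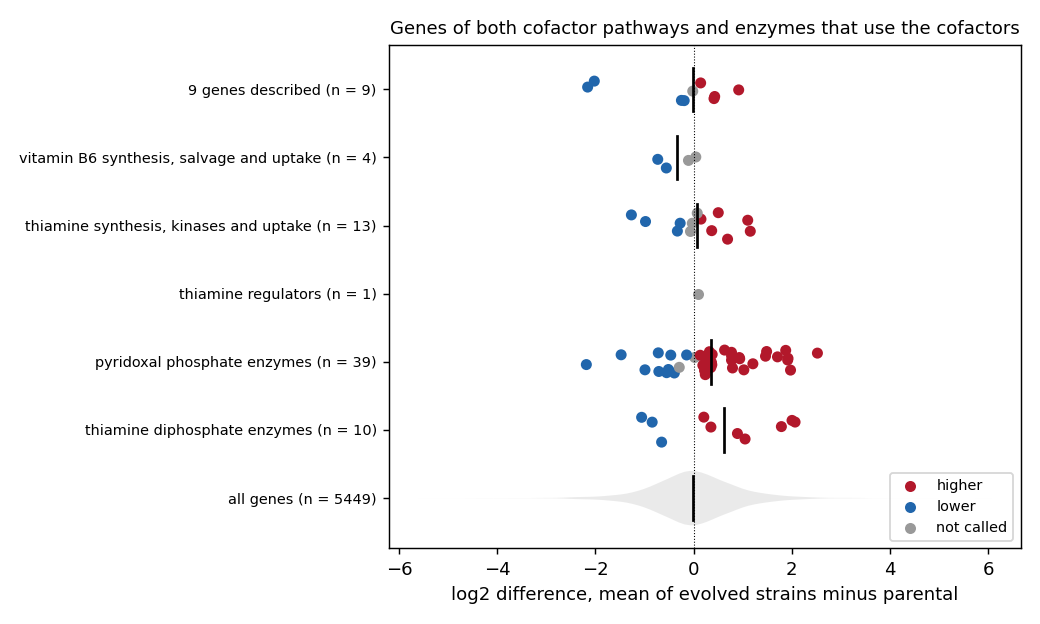
Log2 difference between the mean of the evolved strains and the arrays labelled parental (horizontal axis) for the 9 genes, the other genes of each list and all 5449 genes (rows); points are genes coloured by the call at an adjusted p under 0.05, black bars are medians and the grey shape is the distribution over all genes. List medians run from -0.33 for vitamin B6 genes to 0.62 for thiamine diphosphate enzymes, and the median of all genes is -0.0056.

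For SNZ3, SNO3 and THI4, whose group means spanned at least 1 log2 unit, the genes with the closest profiles over the 4 group means were sought, by root mean square distance after centring. SNZ3 and SNO3 were 0.07 apart (log2 level), and no gene outside the 9 was closer to SNZ3 than that. Next to SNZ3 came CIN5, a transcription factor gene (0.09), MHT1, a homocysteine methyltransferase gene (0.09), and CHA1 (0.12); next to SNO3 came the same genes, with MHT1 at 0.06, CIN5 at 0.08 and CHA1 at 0.10. MHT1 was thus closer to SNO3 than SNZ3 was. For THI4 the closest were PCM1 of chitin precursor synthesis (0.0092), the threonine synthase gene THR4 (0.012) and the mannosyltransferase gene MNN1 (0.012). With 4 group means and 5449 genes, such closeness describes profiles only.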

How the data were processed

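The deposited intensity values were made by the authors with RMA, per the submitters' processing notes; no version was given. RMA includes background correction and quantile normalization before summarising probes into sets. Whether differences were compressed near either end of the scale was not tested. The deposited intensity values were linear, with array medians from 52.6 to 63.0, and log2 was taken here. Of 10928 probe sets, 5498 were annotated to 1 S. cerevisiae gene, 1 to several genes, 1746 to another yeast and 3683 were not listed; the brightest was kept for the 47 genes with several, none of them among the 9.

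The limma 3.58.1 model in R 4.3.3 had 1 coefficient per group over 8 arrays (4 residual degrees of freedom and a prior of 2.52), with Benjamini-Hochberg adjustment over 5449 genes per contrast. All groups shared 1 estimate of spread per gene. The median SD over genes was 2.05 times as large for the parental arrays as within evolved strains. The shared spread can therefore understate the uncertainty of comparisons with parental and overstate it between evolved strains. The fit was first tested on simulated data with known changes. Promoter motifs were not searched, as no promoter sequences were used here. The number of arrays limits the precision. Neither labels nor files give a batch. The 9 genes and the lists were chosen with earlier results of these data known. From the lists, genes changed at least 2-fold were named, or the 2 most changed. Alternatives were other normalization, filters, floor, probe set summary, moderation, samples, blocks and arrays left out. Same-numbered arrays did not deviate together (r = -0.12 to 0.03), so no shared shift by replicate number was seen. With 2 arrays per group this cannot show whether same-numbered arrays were handled together.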

Additional observations from a re-analysis of the deposited data

Results flagged for a closer look

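Differences between evolved strains were tested directly, and 13 of them passed an adjusted p of 0.05 with limma; each is a difference in the distance from the arrays labelled parental. Strain 2 minus strain 1 was 0.33 for SNZ3, 0.32 for SNO3, 0.16 for THI20, -0.16 for SNO1 and -0.13 for PDX3 (log2). Strain 3 minus strain 1 was -0.32 for SNZ3, -0.21 for SNO3, 0.19 for THI3 and 0.093 for SNZ1. Strain 3 minus strain 2 was -0.65 for SNZ3, -0.53 for SNO3, -0.17 for THI20 and 0.11 for SNZ1. Centring on the median removed the calls of THI20 in both of its comparisons and that of SNZ1 in strain 3 minus strain 1. Groups of 2 arrays are too small for a search for single outlying arrays.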

How the results depend on the processing

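Against parental, 538 of 576 values of the 9 genes kept direction and call under an alternative, 24 lost the call, 9 gained it and 5 changed sign. Between evolved strains 379 of 432 were kept, 33 lost the call, 13 gained it and 7 changed sign. These totals include alternatives that could not change the differences of the 9 genes, so the kept shares do not measure robustness. Such were raising values to background, filtering on it and the median of probe sets. Leaving out an array outside a comparison was another. With strain as a random block, called genes numbered 3096 (4725 without it) and called members of the 9 were 5 (8 without it). Leaving out 1 array in turn gave 760 to 2559 genes called between strains 3 and 2 (1744 with all), 1941 to 3469 between strains 2 and 1 (2873) and 2340 to 3672 between strains 3 and 1 (3132). Of the 9 genes it gave 2 to 5, 2 to 6 and 1 to 6 in these comparisons. The lowest, 760, came without strain 2 replicate 1.

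Signs changed where differences were near 0. With arrays centred on the median, PDX3 in strain 2 against parental was -0.00072 (0.08 in the reported fit), THI3 in strain 2 minus strain 1 -0.0026 and THI4 in strain 3 minus strain 1 -0.0085. Under quantile normalization THI3 in strain 3 against parental was -0.022, THI2 and THI3 in strain 2 minus strain 1 -0.021 and -0.0025, and THI4 in strain 3 minus strain 1 -0.024. Leaving out 1 array in turn, THI3 ranged from -0.087 to 0.011 in strain 2 and from -0.036 to 0.0021 in the mean, THI2 in strain 3 from -0.25 to 6.18e-05, and THI20 in strain 3 minus strain 1 from -0.067 to 0.035 (0.0039 without strain 3 replicate 1). Centring changed the share of calls that were higher to 39.1% in strain 2 minus strain 1 (56.6% reported) and 44.3% in strain 3 minus strain 1 (57.6%). The causes were not tested.

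No shared shift by replicate number was seen. A fit with the replicate block called 4707 genes in the mean contrast, with 8 of the 9, and 6 of the 9 in strain 2 against 8 without the block. All 9 genes were above background on all 8 arrays; how far background compressed the differences of the dimmer ones, such as THI2, was not tested.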
